A study of Mus musculus with 8 samples.

Results

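The genes described here are 10 that encode the kinase mTOR, its partner proteins and its regulators: Mtor, Rptor, Rictor, Deptor, Tsc1, Tsc2, Rheb, Ddit4, Sesn2 and Eif4ebp1. They were chosen by symbol, all 10 were present among the 22481 genes of the deposited table, and 9 of the 10 passed a filter on low values that 10943 genes passed. There were 4 samples of liver RNA from male db/db mice, which lack a working long form of the leptin receptor and become obese and diabetic, and 4 samples from male lean mice labelled C57BL/6. The titles number the samples 1 to 4 in each group. Food and water were freely available. No age, kind of diet or treatment is given in the sources used here, and for db/db no background strain is named. The labels do not say whether each sample is a separate animal, so a p-value reflects how far these samples differ, part of which may be technical. The study concerned fatty liver disease and the deubiquitylating enzyme RPN11.

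mTOR is a protein kinase that works in a pair of complexes. In mTORC1 it is joined by raptor (Rptor) and senses amino acids, insulin and energy, promoting translation and lipid synthesis; in mTORC2 it is joined by rictor (Rictor) and phosphorylates AKT. The small GTPase RHEB switches mTORC1 on at the lysosome, the TSC complex of tuberin and hamartin switches RHEB off, and mTORC1 releases translation by phosphorylating 4E-BP proteins, which otherwise hold the cap-binding protein eIF4E. In liver, insulin and feeding activate mTORC1, which is known for its part in lipid synthesis.

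Of the 9 genes tested, Eif4ebp1 fell, Mtor and Rptor rose modestly, and 6 did not pass the test. Eif4ebp1 was 2.08-fold lower, Mtor 1.51-fold higher and Rptor 1.34-fold higher in db/db than in lean, as ratios of mean FPKM (fragments counted for a gene, corrected for transcript length and library size). The call used limma on log2(FPKM + 1) over all 10943 genes, with an adjusted p under 0.05. By the same rule 26.4% of all genes tested were called, 15.5% higher and 10.9% lower, against 3 of the 9, or 2 higher and 1 lower; at this number of genes the share is near the background. The Eif4ebp1 call held in 18 of 18 alternative settings, and those of Mtor and of Rptor each held in 8 of 18. The median log2 difference was 0.33 over the 9 genes and 0.04 over all genes tested. In bulk liver RNA, fewer cells of a type and less RNA per cell cannot be told apart.

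**Figure D1:**
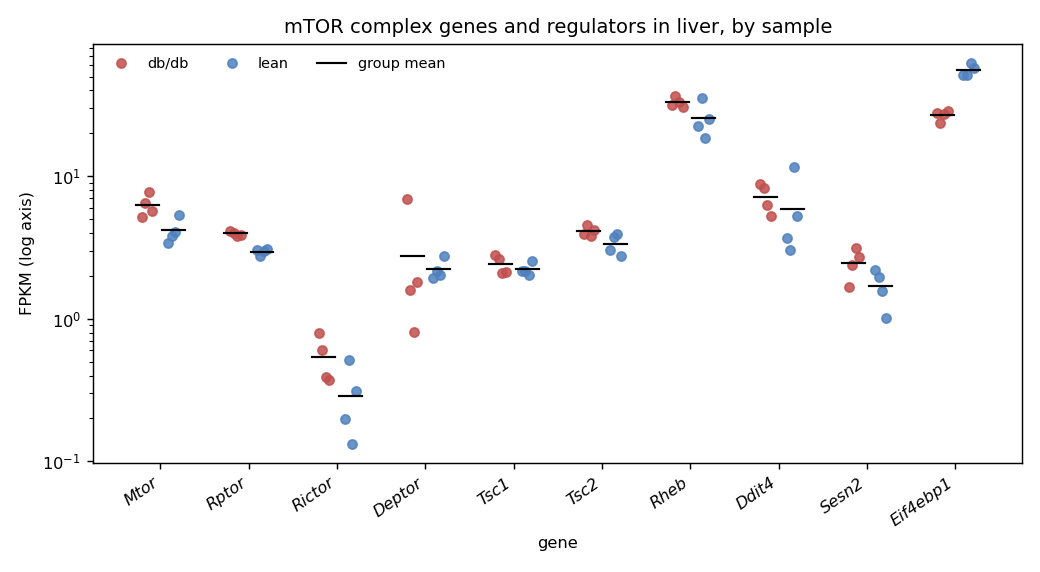
FPKM of the 10 genes in each of the 4 db/db and 4 lean samples, on a log axis, with group means as bars. Eif4ebp1 is at 23.6 to 28.6 across db/db and 51.5 to 62.3 across lean, and Deptor in db/db 1, at 6.91, stands above the other 3 db/db samples.

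The libraries held 12174824 to 16171655 estimated fragments. Sample db/db 1 stood apart from the other db/db samples on the second principal component, with a score of 29.6 against -4.59 or less. Among marker lists, the summed FPKM of 6 hepatocyte genes was 9139 to 11207 across db/db and 25900 to 30450 across lean. This came mostly through Apoa1 and Ttr, the 2 of the 6 called lower. Serpinc1, the 1 with a log2 difference above 0, was at 861 to 951 FPKM across db/db and 758 to 849 across lean, without overlap. Limma adjusted p was 0.175 for Serpinc1 and 0.988 for Apob, so the sum does not describe each marker. Kupffer cell markers, 5 in the table, summed to 68.2 to 90.3 FPKM across db/db and 89.5 to 144.8 across lean. Clec4f was the largest part of that sum. Clec4f and Marco were called lower, and neither call held with no filter. Limma adjusted p was 0.972 for Vsig4, 0.321 for Cd5l and 0.190 for Timd4. The 6 sinusoidal endothelial markers summed to 48.7 to 54.1 FPKM across db/db and 59.9 to 72.4 across lean. Most of the endothelial sum is Clec4g, the 1 of the 6 called lower; 3 of the 6 had a log2 difference above 0, and Lyve1 was at 2.52 to 6.05 FPKM across db/db and 1.45 to 2.51 across lean, without overlap (adjusted p by limma = 0.0548). Neutrophil, erythroid, T or B cell, cholangiocyte, stellate, fat and muscle lists each had ranges that overlapped between groups, except T and B cell markers, at 0.319 to 0.969 FPKM across db/db and 1.11 to 4.86 across lean. Of the T and B cell markers only Cd3g passed the filter. Cd3g was at 0.0567 to 0.839 FPKM across db/db and 0.380 to 3.73 across lean, with overlap (adjusted p by limma = 0.136). Ly6g, Lep, Ckm and Tnnt3 were listed at 0 in every sample. The part of these cell types in the results was not tested.

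The sequences upstream of Mtor, Rptor and Mlst8, the subunits of mTORC1 that were called higher, are shown first, because all 3 were called in the same direction. Each line gives the 250 bases before the start of the gene, 5′ to 3′ on the gene's own strand, from RefSeq in build GRCm38.p6, and capitals mark motif matches. They lie at chr4:148448332-148448581 (plus strand), chr11:119602655-119602904 (plus strand) and chr17:24479079-24479328 (minus strand).
Mtor: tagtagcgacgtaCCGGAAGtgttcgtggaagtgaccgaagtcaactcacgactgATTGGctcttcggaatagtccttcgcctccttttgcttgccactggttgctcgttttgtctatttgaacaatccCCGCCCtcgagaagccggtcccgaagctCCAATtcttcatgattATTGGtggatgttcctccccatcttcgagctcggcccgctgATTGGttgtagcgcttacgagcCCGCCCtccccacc
Rptor: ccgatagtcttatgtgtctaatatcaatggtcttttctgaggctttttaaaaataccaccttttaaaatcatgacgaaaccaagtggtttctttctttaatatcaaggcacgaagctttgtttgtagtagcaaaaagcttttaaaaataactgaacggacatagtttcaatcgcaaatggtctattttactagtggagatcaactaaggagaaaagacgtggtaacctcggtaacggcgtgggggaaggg
Mlst8: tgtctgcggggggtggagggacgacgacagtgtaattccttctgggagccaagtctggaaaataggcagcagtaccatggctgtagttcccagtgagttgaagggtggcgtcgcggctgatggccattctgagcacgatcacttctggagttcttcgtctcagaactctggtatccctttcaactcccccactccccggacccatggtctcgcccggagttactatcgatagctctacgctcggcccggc
The motifs searched, on both strands, were the GC box GGGCGG, the E-box CACGTG, the CCAAT box CCAAT, the TATA box TATAAA, the cyclic AMP response element TGACGTCA and the ETS motif CCGGAAG. The upstream sequence of Mtor held 4 matches to CCAAT, 2 to GGGCGG and 1 to CCGGAAG, which occur in 33.8%, 32.7% and 6.91% of the 32851 promoters of the same length. The sequences of Rptor and Mlst8 held no match to the 6 motifs. Their content of G and C was 54.4% for Mtor, 37.6% for Rptor and 57.6% for Mlst8, against a median of 52.4% over all promoters. A window without a match says only that these letters are not in it. Of the 10 genes, 8 had a promoter in the RefSeq table.

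The catalytic subunit and its mTORC1 partners come next. Mtor (ENSMUSG00000028991, chromosome 4, 148448611 to 148557683, plus strand, by GENCODE M21 on the mm10 assembly) encodes the kinase shared by both complexes. Its level was 5.19, 6.53, 7.81 and 5.72 FPKM in db/db 1 to 4 and 3.40, 3.84, 4.05 and 5.39 in lean 1 to 4. The groups overlapped, since lean 4 lay above db/db 1. Mean FPKM was 6.31 ± 1.14 for db/db and 4.17 ± 0.855 for lean (SD, n = 4 each; log2 difference 0.50, SE 0.15, limma adjusted p = 0.0352). By exact 2-sided permutation of the 8 samples p was 0.0571.

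The order of the samples for Mtor was different in the second deposited measure, the estimated fragments of a gene divided by a size factor of its library. It was 525, 732, 768 and 586 normalized fragments in db/db 1 to 4, and 498, 469, 487 and 369 in lean 1 to 4. Here every db/db sample lay above every lean sample, and lean 4, the highest lean sample in FPKM, was the lowest. Normalized fragments per FPKM, which grow with the transcript length used for a gene, were 98.3 to 112.1 across db/db and 68.5 to 146.4 across lean. The highest sample was thus 2.14 times the lowest for Mtor, against a median of 1.06 and a 90th percentile of 1.71 over tested genes. On this measure limma also called Mtor (log2 difference 0.51, adjusted p = 0.0256), while voom on estimated fragments, which called 29% of all genes, did not (log2 difference 0.44, adjusted p = 0.0582). The Mtor call was kept when db/db 1 or lean 4 was left out and lost when any of the other 6 samples was (limma adjusted p up to 0.0974). Angptl7 lies within the same locus of the table.

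**Figure D2:**
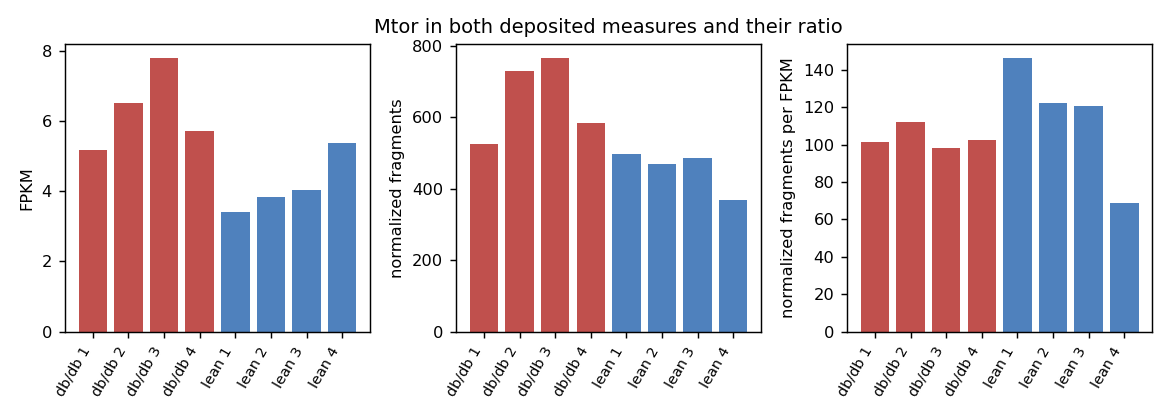
Mtor in each sample as FPKM, as normalized fragments and as normalized fragments per FPKM, with db/db in red and lean in blue. Lean 4 has the highest lean FPKM, 5.39, and the lowest normalized fragments, 369.

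Rptor (ENSMUSG00000025583, chromosome 11, 119602905 to 119899576, plus strand) encodes raptor, which recruits mTORC1 substrates. Rptor was at 4.12, 4.03, 3.84 and 3.91 FPKM in db/db 1 to 4 and at 3.02, 2.74, 2.99 and 3.11 in lean 1 to 4. The groups did not overlap, and the spread within each was small. Mean FPKM was 3.97 ± 0.124 for db/db and 2.97 ± 0.158 for lean (log2 difference 0.33, SE 0.10, limma adjusted p = 0.0391). By exact 2-sided permutation p was 0.0286, which is the smallest value 4 against 4 can give. Over all genes tested, 28.4% had groups that did not overlap in FPKM, 16.9% with db/db higher. The call was lost when any 1 of the 8 samples was left out (adjusted p by limma = 0.0612 to 0.0899) and under median-ratio rescaling (adjusted p = 0.0565). It was kept with voom on estimated fragments (log2 difference 0.39, adjusted p = 0.0133). In the annotation 84 exon bases of Rptor are shared with an antisense RNA, Rptoros, and the sources used here do not say whether counting used strand.

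Of the 8 other genes listed for subunits and assembly of the complexes, 7 were tested. By limma 1 rose and 0 fell, beside 15.5% and 10.9% over all genes, and the median log2 difference of the 7 was -0.06. At an unadjusted p under 0.05, and also by voom, 1 was higher and 1 lower. Over all genes these shares were 22.3% and 16.2% at an unadjusted p under 0.05, and 15.1% and 14% by voom. The gene that rose was Mlst8, which encodes the small subunit bound to the kinase domain in both complexes. Mlst8 was at 3.13, 2.52, 2.41 and 3.002 FPKM in db/db 1 to 4 and at 1.72, 2.03, 1.94 and 1.33 in lean 1 to 4, with no overlap. Its log2 difference was 0.45 (SE 0.13, limma adjusted p = 0.0257), a call kept in 13 of 18 alternatives. It was lost without db/db 1 or 4 or lean 1 or 4 (adjusted p by limma = 0.0586 to 0.0709) and with a replicate block (adjusted p by limma = 0.0647). Its locus in the table also holds Bricd5. Akt1s1 encodes PRAS40, an inhibitor of mTORC1, and averaged 24.9 ± 0.625 FPKM in db/db against 29.8 ± 3.60 in lean (adjusted p by limma = 0.118). Its groups did not overlap, and it was called lower by voom (log2 difference -0.38, adjusted p = 0.0238) and by limma on normalized fragments (log2 difference -0.32, adjusted p = 0.0481). Telo2, Tti1 and Tti2, which encode proteins that help mTOR and related kinases fold, had limma adjusted p of 0.990, 0.688 and 0.251.

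**Figure D3:**
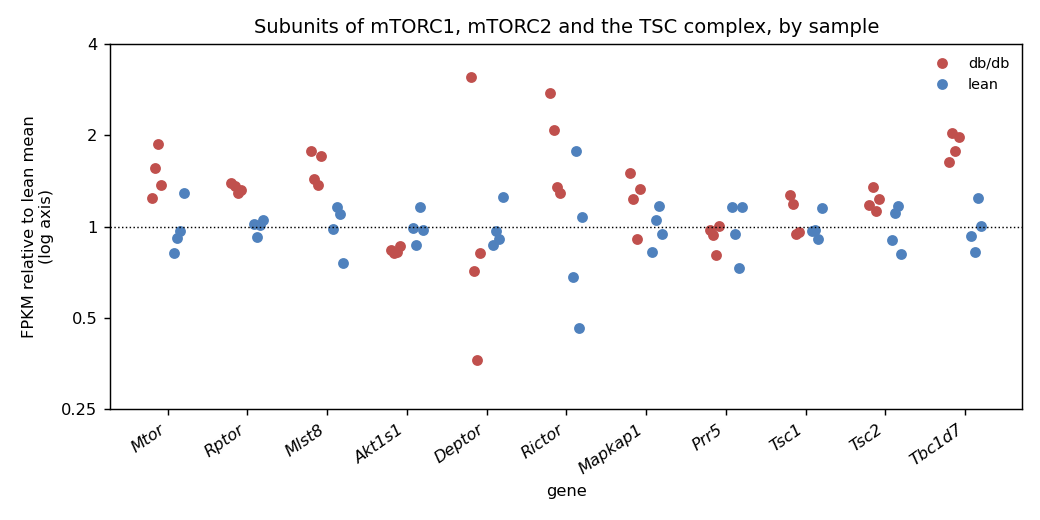
FPKM of subunits of mTORC1, mTORC2 and the TSC complex in each sample, divided by the lean mean of the gene, on a log axis, with db/db in red and lean in blue. The 4 db/db samples lie above all lean samples for Rptor, Mlst8 and Tbc1d7, and below them for Akt1s1.

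Deptor (ENSMUSG00000022419, chromosome 15, 55112317 to 55259271, plus strand) encodes an inhibitory partner of mTOR in both complexes. Deptor was at 6.91, 1.59, 0.806 and 1.82 FPKM in db/db 1 to 4 and at 1.94, 2.16, 2.02 and 2.77 in lean 1 to 4. Sample db/db 1 was above every other sample, and the other 3 db/db samples were below every lean sample. Over all samples the log2 difference was -0.00 with a 95% confidence interval of -0.81 to 0.80 (adjusted p by limma = 0.994). Without db/db 1 it was -0.44 (SE 0.18, limma adjusted p = 0.104). The difference of db/db 1 was also present in estimated fragments, with 1186 there and at most 275 in each other db/db sample. Its locus in the table also holds Col14a1 and Gm9920, and 303 of its exon bases are shared with Gm9920 on the opposite strand.

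For mTORC2, Rictor (ENSMUSG00000050310, chromosome 15, 6708379 to 6800401, plus strand) was the lowest of the 10 genes in both groups. It was at 0.798, 0.602, 0.391 and 0.373 FPKM in db/db 1 to 4 and at 0.197, 0.513, 0.133 and 0.310 in lean 1 to 4. The groups overlapped, and only 3 of 8 samples reached 0.5 FPKM, so it was left out of the main test. These values rest on 61 to 149 estimated fragments in db/db and 20 to 71 in lean. In a fit with no filter the log2 difference was 0.26 (95% confidence interval -0.01 to 0.53, limma adjusted p = 0.179), on a scale that understates changes of low genes. On normalized fragments it was 0.99 (adjusted p = 0.147), and by voom also 0.99 (adjusted p = 0.0977), both with no filter. Mapkap1, which encodes the mTORC2 subunit SIN1, averaged 18.5 ± 3.71 FPKM in db/db against 14.9 ± 2.22 in lean (adjusted p by limma = 0.213). Mapkap1 was called higher in 1 of 18 alternatives (adjusted p by limma = 0.0445), and by voom its log2 difference was 0.34 (adjusted p = 0.0610). Prr5, another mTORC2 subunit, averaged 2.15 ± 0.199 FPKM in db/db against 2.31 ± 0.474 in lean (adjusted p by limma = 0.771), and its paralog Prr5l was at 0.158 ± 0.0708 and 0.210 ± 0.0593 FPKM, under the filter. Of 8 mTORC2 substrates tested, 0 rose and 1 fell by limma, beside 15.5% and 10.9% over all genes. The median log2 difference of the 8 was -0.07. At an unadjusted p under 0.05 the counts were 1 and 2, beside 22.3% and 16.2% over all genes. By voom they were 1 and 1, beside 15.1% and 14%. The 1 that fell was Prkcd, a protein kinase C (log2 difference -0.43, limma adjusted p = 0.0352), a call kept in 9 of 18 alternatives. Akt2, the main AKT gene of liver, averaged 21.6 ± 2.13 FPKM in db/db against 18.3 ± 3.61 in lean (adjusted p by limma = 0.231).

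Neither gene of the TSC core passed the test. Tsc1 (ENSMUSG00000026812, chromosome 2, 28641228 to 28691167, plus strand) encodes hamartin, which stabilizes tuberin. It was at 2.82, 2.64, 2.10 and 2.13 FPKM in db/db 1 to 4 and at 2.15, 2.16, 2.02 and 2.56 in lean 1 to 4. The groups overlapped (log2 difference 0.08, 95% confidence interval -0.19 to 0.35, limma adjusted p = 0.654). For Tsc1 the log2 difference was larger on normalized fragments, at 0.27 (limma adjusted p = 0.161), and by voom, at 0.21 (adjusted p = 0.232). Tsc2 (ENSMUSG00000002496, chromosome 17, 24595816 to 24632630, minus strand) encodes tuberin, the GTPase-activating protein for RHEB. It was at 3.96, 4.55, 3.80 and 4.18 FPKM in db/db 1 to 4 and at 3.05, 3.74, 3.96 and 2.75 in lean 1 to 4. In 3 of 4 db/db samples it was above every lean sample (log2 difference 0.23, 95% confidence interval -0.05 to 0.52, limma adjusted p = 0.201). Tsc2 shares 693 exon bases with Pkd1 on the opposite strand.

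Tbc1d7, which encodes the third subunit of the TSC complex, did rise. Tbc1d7 was at 6.04, 7.50, 6.57 and 7.26 FPKM in db/db 1 to 4 and at 3.44, 3.04, 4.57 and 3.70 in lean 1 to 4. The groups did not overlap, and it was 1.85-fold higher in db/db (log2 difference 0.75, SE 0.13, limma adjusted p = 0.00209), a call kept in 18 of 18 alternatives. In its list of 9 tested genes around TSC and RHEB it was the 1 gene called by limma, with a list median of 0.05. Voom called 2 genes of the list higher. Over all genes tested, 15.5% were called higher by limma and 15.1% by voom.

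Rheb (ENSMUSG00000028945, chromosome 5, 24802823 to 24842624, minus strand) was the highest of the 10 genes in db/db. It was at 31.6, 36.6, 33.4 and 30.4 FPKM in db/db 1 to 4 and at 22.6, 35.6, 18.6 and 25.2 in lean 1 to 4. Lean 2 lay within the db/db range and the other lean samples below it. The log2 difference was 0.39 (95% confidence interval 0.02 to 0.77, limma adjusted p = 0.115), and without lean 2 it was 0.56 (adjusted p by limma = 0.0141). Lean 2 was the highest lean sample, so leaving it out had to widen the difference. With each other sample left out Rheb was not called (adjusted p by limma = 0.146 to 0.256). In normalized fragments the groups did not overlap, at 717 to 831 across db/db and 531 to 714 across lean (adjusted p by limma = 0.0676 on that measure). Normalized fragments per FPKM were lowest in lean 2, at 20.1, against 22.3 to 28.6 in the other 7 samples. Its paralog Rhebl1 was low, at 0.353 ± 0.193 FPKM in db/db against 0.617 ± 0.281 in lean (adjusted p by limma = 0.279).

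Neither of the stress-induced inhibitors of mTORC1, Ddit4 and Sesn2, passed the test. Ddit4 (ENSMUSG00000020108, chromosome 10, 59949669 to 59951834, minus strand) encodes REDD1, which is induced by hypoxia, glucocorticoids and other stresses and acts through TSC. It was at 8.85, 8.24, 6.25 and 5.31 FPKM in db/db 1 to 4 and at 3.68, 3.06, 11.6 and 5.24 in lean 1 to 4. Lean 3 was the highest of all samples, while the other 3 lean samples lay below every db/db sample. The log2 difference was 0.37 (95% confidence interval -0.32 to 1.06, limma adjusted p = 0.413), and without lean 3 it was 0.71 (SE 0.20, limma adjusted p = 0.0328). Leaving out the highest lean sample had to widen the difference. With each other sample left out Ddit4 was not called (adjusted p by limma = 0.347 to 0.733). Neutrophil markers were also highest in lean 3, with a summed FPKM of 69.6 against 1.81 to 23.0 in the other samples. Of 14 glucocorticoid-induced genes in the table, 7 were also highest in lean 3: Fkbp5, Tsc22d3, Per1, Sgk1, Tat, Sds and Nfkbia. The share of all genes highest in lean 3 was not computed, so this count has no background beside it. Tsc22d3 was at 133 FPKM there against 52.1 to 96.7 in the other samples. Others nearly tied with db/db 1: Per1 was at 10.3 FPKM in lean 3 and 10.1 in db/db 1, and Tat at 1217 and 1187. Klf9, of the same list, was at 7.50 FPKM in lean 3, its lowest lean value. The part of neutrophils or glucocorticoids in the Ddit4 value was not tested. Its locus in the table holds 4 other genes. Ddit4l, its paralog, was at 0.676 ± 0.473 FPKM in db/db against 0.241 ± 0.107 in lean, under the filter.

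Sesn2 (ENSMUSG00000028893, chromosome 4, 132492032 to 132510501, minus strand) encodes sestrin 2, a leucine sensor that binds GATOR2 and restrains mTORC1 when leucine is scarce. It was at 1.67, 2.40, 3.16 and 2.70 FPKM in db/db 1 to 4 and at 2.21, 1.96, 1.57 and 1.02 in lean 1 to 4. In 3 of 4 db/db samples it was above every lean sample, with db/db 1 within the lean range (log2 difference 0.37, 95% confidence interval -0.03 to 0.77, limma adjusted p = 0.155). Its paralog Sesn1 averaged 3.59 ± 0.580 FPKM in db/db against 4.18 ± 0.435 in lean, and Sesn3 0.659 ± 0.362 and 0.476 ± 0.237 (adjusted p by limma = 0.338 and 0.531). Summed over the 3 sestrin genes, FPKM was 6.15 to 7.52 across db/db and 5.63 to 7.11 across lean. Sesn1 made up 46.2 to 58.2% of that sum in db/db and 64.9 to 67.5% in lean, which did not overlap. This share is a description and was not tested.

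Eif4ebp1 (ENSMUSG00000031490, chromosome 8, 27260329 to 27276674, plus strand) encodes 4E-BP1, the translation repressor that mTORC1 inactivates by phosphorylation. Eif4ebp1 was at 27.7, 23.6, 27.5 and 28.6 FPKM in db/db 1 to 4 and at 51.6, 51.5, 62.3 and 57.6 in lean 1 to 4. All 4 db/db samples lay below all 4 lean samples, with a gap wider than the range of either group. Mean FPKM was 26.8 ± 2.24 for db/db and 55.8 ± 5.24 for lean (log2 difference -1.03, SE 0.11, limma adjusted p = 7.45e-05). By exact 2-sided permutation p was again 0.0286. The call was kept in 18 of 18 alternatives (adjusted p = 4.41e-05 to 0.000789), with log2 differences from -1.13 to -0.97. No other gene shares its locus in the table, and its normalized fragments per FPKM differed by 1.02 times between the highest and lowest sample.

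Its paralog Eif4ebp3 fell as well. Of 5 paralogs tested it was the 1 called, with 0 higher and a list median of -0.18. Over all genes tested, 15.5% were called higher and 10.9% lower by limma. At an unadjusted p under 0.05 and by voom the paralog counts were also 0 higher and 1 lower. The shares over all genes were 22.3% and 16.2% at an unadjusted p under 0.05, and 15.1% and 14% by voom. Eif4ebp3 was at 38.1, 21.2, 19.6 and 15.3 FPKM in db/db 1 to 4 and at 207, 135, 160.0 and 235 in lean 1 to 4, which did not overlap. It was 7.82-fold lower in db/db (log2 difference -2.96, SE 0.26, limma adjusted p = 2.24e-05), a call kept in 18 of 18 alternatives. Its locus in the table also holds Ankhd1, so its values are uncertain. Eif4ebp2 averaged 9.49 ± 3.51 FPKM in db/db against 7.20 ± 1.55 in lean (adjusted p by limma = 0.310). Summed over the 3 genes, FPKM was 52.6 to 80.3 across db/db and 193.4 to 301.3 across lean. Eif4ebp3 made up 29.1 to 47.4% of the sum in db/db and 69.6 to 78.5% in lean. Eif4e, which encodes the protein they bind, was at 16.6 to 20.7 FPKM across db/db and at 13.6 to 17.8 across lean (adjusted p by limma = 0.120). The ratio of Eif4ebp1 to Eif4e in FPKM was 1.34 to 1.66 across db/db and 3.23 to 4.57 across lean, as a description.

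**Figure D4:**
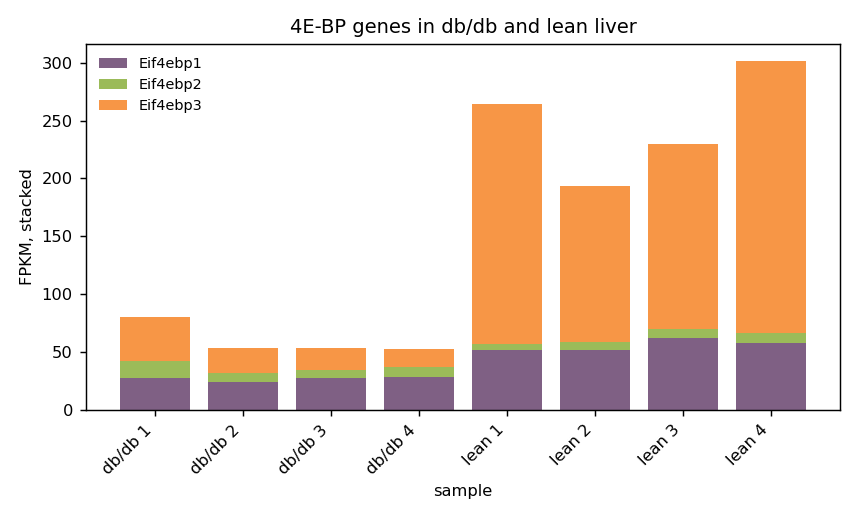
FPKM of Eif4ebp1, Eif4ebp2 and Eif4ebp3 stacked for each sample. The sum is 52.6 to 80.3 across db/db and 193.4 to 301.3 across lean, and most of the gap is Eif4ebp3.

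Other genes on which mTORC1 acts, or which act in translation downstream of it, formed a list of 20. Of the 20 tested, which include Eif4ebp2 and Eif4ebp3, 0 rose and 7 fell by limma, with a median log2 difference of -0.25; at an unadjusted p under 0.05 the counts were 2 and 9, and by voom 0 and 7. Over all genes tested the shares higher and lower were 15.5% and 10.9% by limma, 22.3% and 16.2% at an unadjusted p under 0.05, and 15.1% and 14% by voom. Rps6kb1 encodes S6 kinase and was chosen here after its values were seen. It was at 7.58 to 11.8 FPKM across db/db and 5.44 to 7.17 across lean, without overlap. Its log2 difference was 0.42 by limma (adjusted p = 0.0652) and only 0.06 by voom on estimated fragments (adjusted p = 0.716). Those that fell were Eif4ebp3, Lpin1, Eif4a1, Rps6, Eef2k, Ulk1 and Eif4b. Lpin1, a phosphatidate phosphatase that mTORC1 phosphorylates, was at 12.6, 4.54, 2.86 and 3.45 FPKM in db/db 1 to 4 and at 21.7 to 39.2 in lean (log2 difference -2.42, limma adjusted p = 0.000664). Eif4a1, the helicase of the cap-binding complex, fell from 196 ± 7.69 to 138 ± 5.39 FPKM (adjusted p by limma = 0.00179). Rps6, the ribosomal protein phosphorylated by S6 kinase, fell from 606 ± 38.7 to 400.0 ± 41.9 FPKM (adjusted p by limma = 0.00264). Eef2k, the kinase of elongation factor eEF2, fell 2.68-fold and Ulk1, the kinase that starts autophagy, 1.55-fold (adjusted p by limma = 0.00425 and 0.0363). Without db/db 1, lean 1 or lean 2 the count was 5 lower, and it was 6 to 8 without each other sample.

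Upstream of mTORC1 are the genes of amino acid sensing, whose limma counts stand beside 26.4% called over all genes, 15.5% higher and 10.9% lower. At an unadjusted p under 0.05 the shares higher and lower were 22.3% and 16.2%, and by voom 15.1% and 14%. Of 12 GATOR and KICSTOR genes tested, 0 rose and 0 fell by limma, with a median log2 difference of 0.13, and the counts were also 0 at an unadjusted p under 0.05 and by voom. Its most abundant gene, Sec13, was at 46.7 to 55.7 FPKM across db/db and at 41.0 to 50.1 across lean (adjusted p by limma = 0.421). Of 11 Rag GTPase, Ragulator and folliculin genes, 1 rose and 1 fell by limma, with a median of 0.01, and 0 were higher and 1 lower by voom. Rraga, which encodes RagA, rose from 16.1 ± 2.41 to 20.8 ± 0.921 FPKM (adjusted p by limma = 0.0428), which was called in 7 of 18 alternatives and lost without each single sample except lean 4. Lamtor3, a Ragulator subunit, fell from 11.1 ± 0.708 to 7.37 ± 0.889 FPKM (adjusted p by limma = 0.00613), which was called in 18 of 18 alternatives. Lamtor2, the most abundant, averaged 112 ± 13.4 FPKM in db/db against 110.2 ± 11.2 in lean (adjusted p by limma = 0.943). Of 5 tested amino acid sensors, 1 rose: Sar1b, a GTPase of vesicle export that also binds leucine, from 145 ± 12.1 to 225 ± 17.4 FPKM (adjusted p by limma = 0.00136). Its locus in the table holds 18 other genes.

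**Figure D5:**
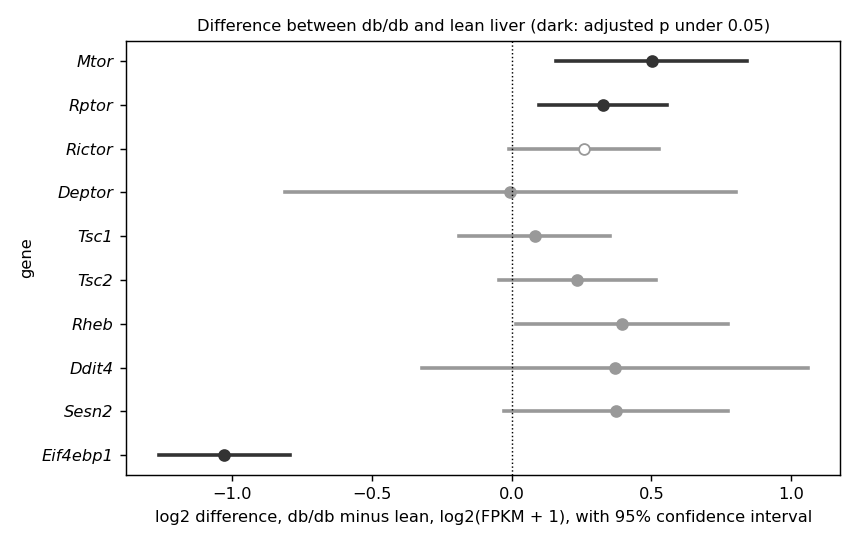
Log2 difference, db/db minus lean, of the 10 genes on the log2(FPKM + 1) scale with its 95% confidence interval; dark points passed the test, and the open point, Rictor, comes from a fit with no filter. Eif4ebp1 is at -1.03, and Mtor and Rptor at 0.50 and 0.33.

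Set side by side, since FPKM is per length, the 10 genes spanned 33.0 to 0.541 mean FPKM in db/db and 55.8 to 0.288 in lean. In lean the order was Eif4ebp1, Rheb, Ddit4, Mtor, Tsc2, Rptor, Tsc1, Deptor, Sesn2 and Rictor. In db/db Rheb came before Eif4ebp1, the next 4 genes kept their order, and Deptor and Sesn2 came before Tsc1. In lean the neighbours from Ddit4 to Rptor and from Tsc1 to Sesn2 did not differ beyond the ranges of their samples. In db/db this held for Ddit4 and Mtor and for the neighbours from Tsc2 to Tsc1. The levels of Eif4ebp1 and Rheb did not overlap in either group, with Eif4ebp1 above in lean and Rheb above in db/db. In db/db the lowest Rheb value was 30.4 FPKM and the highest of Eif4ebp1 28.6. Normalized fragments per FPKM differed between samples by up to 1.42 times for Rheb and 2.14 times for Mtor. The order therefore depends on the transcript lengths used.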

How the data were processed

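RNA sequencing of rRNA-depleted liver RNA, in stranded total RNA libraries per the labels' protocols, gave 1 table of 22564 rows with values and 1 empty row. Tools named in the submitters' processing notes are HISAT2 2.0.4, cutadapt 1.9.3, Cuffdiff and Cufflinks, and the build is mm10; their roles are not stated. The authors' FPKM values are per the file headers, and the transcript length behind them is not stated. The second measure is headed as counts, but the deposited values are a normalized signal: estimated fragments divided by a size factor per library. Each library had a smallest step; 91.3 to 91.9% of values were whole numbers of steps (tolerance 0.05), and values divided by it are the estimated fragments.

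Rows of 1 symbol were summed. Genes with FPKM of at least 0.5 in at least 4 of 8 samples were tested by limma 3.58.1 in R 4.3.3 on log2(FPKM + 1), 2-sided with a mean trend, adjusting p by Benjamini-Hochberg over all genes. Log2 differences are db/db minus lean and understate changes of low genes. Folds are ratios of mean FPKM. The fits were tested on simulated data. Exact permutation tests enumerated all splits of 4 against 4. The genes and lists were chosen with earlier results of these data known. Named genes were the 10, all other listed subunits and paralogs, and of each list the 2 called genes with the smallest adjusted p and the most abundant, and the 3 genes most like Eif4ebp1; other genes were named after their values were seen. Replicates of 1 group differed by more than sampling noise, with a chi-square per degree of freedom of at least 13.9 for each pair. Alternatives numbered 18: pseudocounts, filters, rescaling, voom, the second measure, no trend, library weights, a replicate block and leaving out each sample.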

Additional observations from a re-analysis of the deposited data

Results flagged for a closer look

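In 98 sets of 4 values, each a named gene in 1 group, 4 samples lay far from the other 3 by Dixon's test, where chance gives about 1 in 20. Deptor was at 6.91 FPKM in db/db 1, while the rest of that group was at 0.806 to 1.82. Rraga, the RagA gene, was at 19.7 FPKM in lean 4, against 14.8 to 15.2 in the other lean samples. Shmt2, a mitochondrial serine enzyme, was at 87.9 FPKM in lean 3, against 69.4 to 71.8. Tti1, of the mTOR folding complex, was at 2.87 FPKM in lean 1, against 3.30 to 3.37.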

How the results depend on the processing

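The number of all genes called was 2892, and 2182 to 3175 under the 18 alternatives. Of the 10 genes, the number called was 3. It was 1 under median-ratio rescaling, 1 with a replicate block and 1 to 2 when each sample was left out in turn. Of 178 values of the 10 genes under alternatives, 152 kept their direction and their side of the threshold, 20 lost the call, 2 gained it and 4 changed sign; for the 37 other named genes the counts were 602, 25, 3 and 17 of 647. Mtor, with a log2 difference of 0.50, was not called with no filter (0.50), median-ratio rescaling (0.46), voom (0.44) or the replicate block (0.50), and ranged from 0.41 to 0.61 when each sample was left out. Rptor, at 0.33, was not called under median-ratio rescaling (0.29) or the replicate block (0.33), and ranged from 0.30 to 0.34 with a sample left out. When each sample was left out, Deptor ranged from -0.44 to 0.27, Rheb from 0.26 to 0.56 and Ddit4 from 0.17 to 0.71. Differences near 0 changed sign: Lamtor2, at 0.01, was -0.033 under median-ratio rescaling, -0.082 with voom, -0.017 on the second measure and -0.043 to 0.10 with a sample left out; Telo2 was -0.025 under median-ratio rescaling, -0.092 with library weights and -0.31 to 0.23 with a sample left out; Tat was -0.32 to 0.15 with a sample left out. The cause was not tested. Rescaling shifted the median of all genes from 0.04 to 0.00. The titles do not say whether same-numbered samples are paired. Deviations of same-numbered samples correlated at -0.22, 0.03, 0.11 and -0.01. These were not compared with other pairs, so they cannot decide it. The replicate block gave 2514 genes. At 20 to 149 estimated fragments, the depth limits Rictor most.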

Other observations

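Genes induced by the same stresses as Ddit4 and Sesn2 were examined as lists. Their counts stand beside 15.5% higher and 10.9% lower by limma over all genes tested. At an unadjusted p under 0.05 these shares were 22.3% and 16.2%, and by voom 15.1% and 14%. Of 12 tested p53 targets, 5 rose and 0 fell by limma, with a median log2 difference of 0.29. At an unadjusted p under 0.05, as by voom, 6 were higher and 0 lower. Cdkn1a, the p21 cell cycle inhibitor, averaged 11.3 ± 2.73 FPKM in db/db against 0.510 ± 0.509 in lean (adjusted p by limma = 1.04e-05). It passed the filter through the 4 db/db samples and lean 3, at 1.26 FPKM. Phlda3, also called higher, passed in the same way, with lean 3 at 0.718 FPKM. Ccng1, cyclin G1, rose 2.77-fold (adjusted p by limma = 5.97e-05). Bax, an activator of cell death and the most abundant of that list, averaged 18.1 ± 3.76 FPKM in db/db against 22.1 ± 4.85 in lean (adjusted p by limma = 0.297). Of 12 tested ATF4 targets, a list that includes Atf4 itself, 2 rose and 2 fell, with a median of -0.07. Atf5, a transcription factor, rose 1.86-fold and Atf4 fell 1.52-fold (adjusted p by limma = 0.00159 and 0.00827). Vldlr, a lipoprotein receptor, was called higher, at 0.695 to 2.59 FPKM across db/db and 0.126 to 0.185 across lean (adjusted p by limma = 0.00147). It passed the filter only through the 4 db/db samples, so it had to differ, and it dropped out of the test when any of them was left out. Asns, asparagine synthetase, was called lower, at 0.239, 0, 0.803 and 0.121 FPKM in db/db 1 to 4 and 3.16, 3.34, 1.10 and 2.76 in lean 1 to 4 (adjusted p by limma = 0.00183). It passed the filter through the 4 lean samples and db/db 3, which holds most of the db/db mean. Shmt2, the most abundant of the list, averaged 80.4 ± 3.06 FPKM in db/db against 75.1 ± 8.60 in lean (adjusted p by limma = 0.495).

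Of 14 tested glucocorticoid-induced genes, 3 rose and 1 fell, with a median of 0.09, beside 15.5% and 10.9% over all genes. Mt2, a metallothionein, rose 7.14-fold and Lcn2, lipocalin, rose as well (adjusted p by limma = 0.00462 and 1.46e-05); both also respond to inflammation. Tat, tyrosine aminotransferase, averaged 761 ± 311 FPKM in db/db against 816 ± 359 in lean (adjusted p by limma = 0.892). Of 12 tested hypoxia-induced genes, 3 rose and 2 fell, with a median of -0.08. Pdk1, pyruvate dehydrogenase kinase, rose 2.79-fold and P4ha2, a collagen prolyl hydroxylase, fell 2.43-fold (adjusted p by limma = 8.06e-05 and 0.000711). Bnip3, a mitophagy receptor, averaged 143 ± 21.5 FPKM in db/db against 163 ± 31.3 in lean (adjusted p by limma = 0.452).

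Over the 8 samples, the levels most like that of Eif4ebp1 were those of Rsl24d1, a ribosome assembly factor, Enho, which encodes adropin, and Ahsg, fetuin A, with Pearson r of 0.994, 0.994 and 0.993 on log2(FPKM + 1). The samples fall into the 2 groups, so these values mostly describe the difference between groups. Of 10942 genes, 154 had r of at least 0.95. Enho was at 0.0507 to 0.499 FPKM across db/db and 11.1 to 26.5 across lean. It passed the filter only through the 4 lean samples, so it had to differ between the groups. It dropped out of the test when any of those 4 was left out.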
